A study of Bos taurus with 6 samples.

Results

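The genes described here encode the proteins that activate fatty acids, carry them into mitochondria and peroxisomes and oxidise them there, together with proteins that pass on the released electrons, dissipate the proton gradient or use ketone bodies. They were chosen by name, from a list of 43 gene symbols. No measured value served as a criterion, although earlier results of these data were known when the list was made. The platform annotation gave a probe set with exactly 1 gene symbol to 36 of them, out of 9155 genes so annotated on the array. Of the other 7 symbols, DCI is an older name of ECI1, which is included, and ACSL4, CPT1A, ACAD8, ETFDH, EHHADH and OXCT1 were not analysed here. RNA was taken from a muscle of the back, the longissimus dorsi, in 3 Japanese Black and 3 Holstein steers, with 1 array per animal. Steers are castrated males; Japanese Black cattle are raised for marbled beef, whereas Holstein cattle are kept mainly for milk. All 6 animals, the Holstein ones included, had been fed an energy-rich ration, so the comparison is between breeds on that feed and not between feeds. Animals are numbered 1 to 3 within a breed only to name them, and the labels give no age.

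A long-chain fatty acid is first joined to coenzyme A by an acyl-CoA synthetase. The carnitine shuttle then moves the acyl group across the inner mitochondrial membrane, with carnitine palmitoyltransferases on either side of a carrier. Inside, the chain is shortened stepwise by dehydrogenation, hydration, a further dehydrogenation and thiolysis, and the electrons of the opening step leave through the electron-transferring flavoprotein. Peroxisomes shorten very long and branched chains by a related route that has its own oxidases. In skeletal muscle this pathway is a major source of energy at rest and during sustained work, above all in slow oxidative fibres.

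Signals are linear intensities. Every difference is a log2 value, computed after adding 16 to the signal, of which the Holstein mean was subtracted from the Japanese Black mean. The added 16 makes differences of dim probe sets look smaller than they are. Each gene is represented by its brightest probe set. Levels of different probe sets are not comparable with each other. Median signals per array lay between 48.5 and 54.7 and upper quartiles between 172 and 205, the latter in Japanese Black 3. The ratio of the 3′ to the 5′ actin control probe set was 1.11 to 1.14 in Japanese Black and at most 1.07 in Holstein, and the mean signal of the BioB hybridisation controls reached 529 in Holstein 3 against 297 to 352 elsewhere. The tissue label was checked against muscle fibre markers, of which 7 of 9 were annotated. They read between 6083 and 15874 on every array. Summed signals of 8 of 10 slow fibre markers were 71907 to 82454 in Japanese Black and 73819 to 76549 in Holstein, and those of 6 of 10 fast fibre markers 69797 to 71432 and 70532 to 72771. Single markers within these sums did separate the breeds, at 3 of 8 slow and 2 of 6 fast ones. These were 37.5% and 33.3%, against 19.8% of all probe sets. The slow myosin light chain MYL3 read 1172 to 3003 in Japanese Black and 3917 to 5822 in Holstein (log2 difference -1.29, adjusted p 0.287). The slow fibre genes MYL2 (0.19) and TNNC1 (0.06) were wholly higher in Japanese Black. The fast fibre gene ACTN3 was wholly lower there (-0.34, adjusted p 0.310) and the fast fibre gene TNNC2 wholly higher (0.09). Of the 8 slow markers 7 had differences above 0 and 1, MYL3, below 0. That was 87.5% above 0, against 51.0% of all probe sets. Of the 6 fast markers 3 had differences above 0 and 3 below 0. Summed signals of 8 of 9 adipocyte markers, none of them at 0, were 2957, 2792 and 12201 in Japanese Black 1 to 3 and 6237, 9601 and 2245 in Holstein 1 to 3. Summed signals of 8 endothelial markers were 2178 to 3244 in Japanese Black and 3050.0 to 3841 in Holstein. Of these markers 8 of 8 had differences below 0, where 51.0% of all probe sets had one above 0. The breeds did not overlap at 3 of them, or 37.5%, against 19.8% of all probe sets. At 2, or 25%, the unadjusted limma p was under 0.05, against 12.6%, and the smallest adjusted p was 0.321. Those of 6 leukocyte markers, at 405 to 646 and 456 to 598, overlapped between breeds. Of 4 erythrocyte markers GYPC had a difference of 0.30, and HBA, HBB and ALAS2 had -0.22, -0.63 and -0.24. Their summed signals, mostly GYPC, were 3637 to 4860.0 and 3268 to 3989. The part of RNA quality, hybridisation, fibre type and vessel or blood cells in the differences below was not tested.

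None of the fatty acid oxidation genes passed the adjusted threshold of 0.05. Of the 36 members 35 were bright enough to be tested, and 0 had an adjusted p under 0.05 in limma, where 0.0167% of all 18012 probe sets did. At an unadjusted limma p under 0.05 there were 2 members, ACSL3 and ACADM, both higher in Japanese Black. They were 5.71% of the members tested, against 12.6% of all probe sets, or 7.31% in the higher and 5.28% in the lower direction. The breeds did not overlap at 3 members, or 8.57%, against 19.8% of all probe sets. ACSL3 and ACADM lay wholly higher in Japanese Black, as 11.0% of all probe sets did, and ACAD9 wholly lower, as 8.84% did. Both shares of members lay below those of the whole array. By sign alone, 21 members had a difference above 0 and 14 one below 0, so 60.0% were above 0 against 51.0% of all probe sets. Over all tested genes at their brightest probe set, as used for the members, 48.7% were above 0, with a median of -0.0089. Of those genes 11.3% had an unadjusted limma p under 0.05, and the breeds did not overlap at 19.2%. The median difference was 0.09 over the members and 0.0067 over all probe sets. It depended on single animals, being -0.0023 when Japanese Black 3 was left out and 0.15 when Japanese Black 2 was. Leaving out Holstein 2 gave 0.19, Holstein 3 gave 0.04 and Holstein 1 gave 0.06. It was 0.03 with the mean over a gene's probe sets and 0.04 after quantile normalization. The 95% intervals of the members had a median half-width of 0.42, which is larger than most of the differences themselves.

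**Figure D1:**
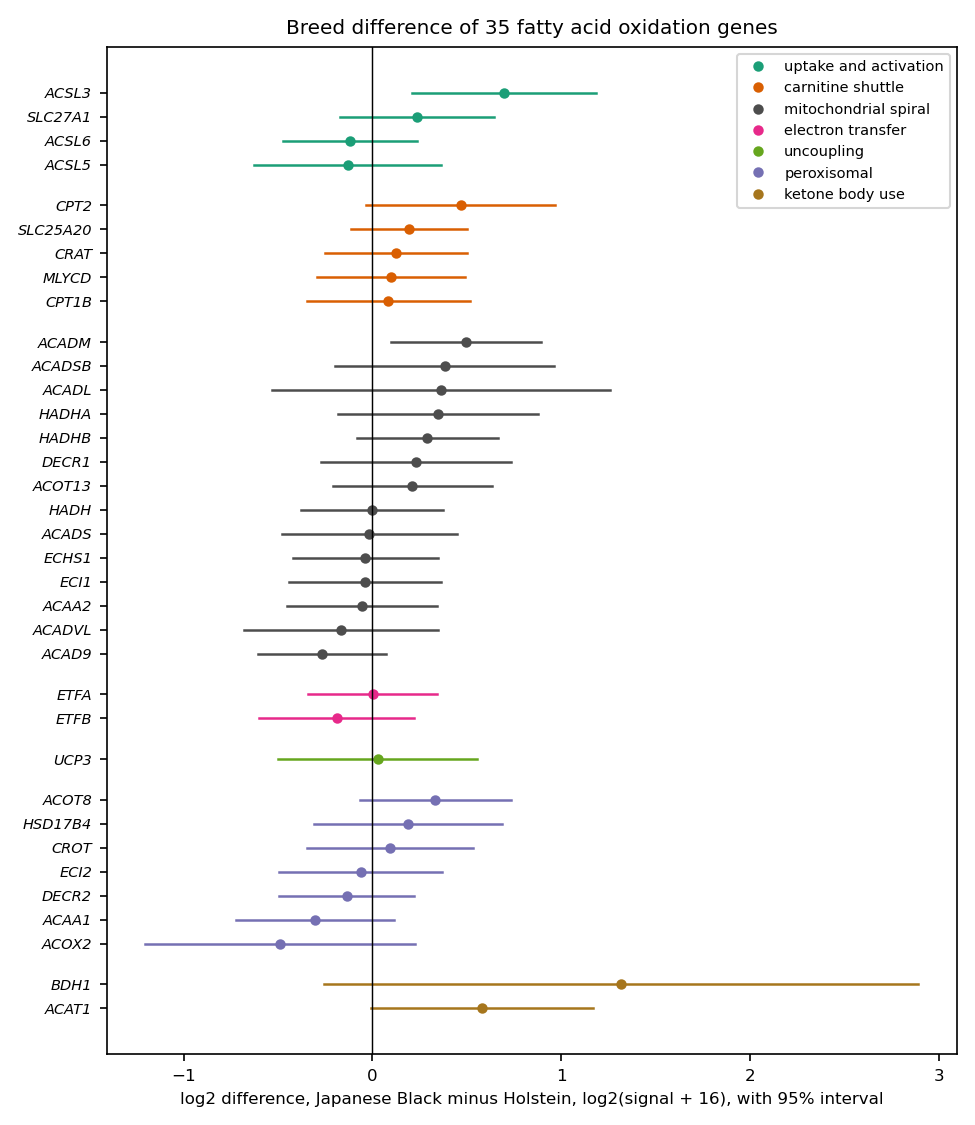
Points give the log2 difference between breeds (above 0, higher in Japanese Black) of 35 genes, after adding 16 to the signal, and lines its 95% interval from limma, with 3 animals per breed. Genes are grouped by role, and the intervals of ACSL3 and ACADM lie above 0 while those of the other 33 cross it.

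Among the 4 tested members that take up and activate fatty acids, ACSL3 had the largest difference between breeds. ACSL3 encodes an acyl-CoA synthetase of the endoplasmic reticulum and of lipid droplets. Its signal was 178, 197 and 205 in Japanese Black 1 to 3 and 119, 149 and 80.0 in Holstein 1 to 3. Every Japanese Black animal was above every Holstein animal. The log2 difference was 0.70 (SE 0.22, 95% interval 0.21 to 1.19), a 1.62-fold difference, with a limma adjusted p of 0.321. The 2 other probe sets of ACSL3 had differences of 0.41 and 0.39, so all 3 pointed the same way. Across the fits that left out 1 animal each, the difference lay between 0.49, without Holstein 3, and 0.87, without Holstein 2. With the level of the adipocyte markers as a covariate it was 0.68 (adjusted p 0.215). That level, on the log2 scale, was -0.47, -0.50 and 1.05 in Japanese Black 1 to 3 and 0.10, 0.63 and -0.81 in Holstein 1 to 3. The level was nearly balanced between breeds, so the covariate could hardly move a breed difference. In a sample of whole muscle, fewer cells of a type and less RNA per cell cannot be told apart.

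The other activating members had differences nearer to 0, with intervals that overlapped that of ACSL3. SLC27A1, a fatty acid transport protein of muscle and fat, read 343 ± 44.9 in Japanese Black and 289.8 ± 42.1 in Holstein (SD, n = 3 each), a difference of 0.23. Its dimmer probe set had a difference of -0.21, so the probe sets of SLC27A1 disagreed in direction. ACSL5, a synthetase found on mitochondria and the endoplasmic reticulum, had a difference of -0.13 (95% interval -0.63 to 0.36), with signals of 80.9 to 144 in Japanese Black and 99.9 to 125 in Holstein. ACSL6, known mainly from brain, was close to the dim end of the array at 16.4 to 26.8 in all animals. Whether the difference of ACSL3 exceeded those of the other members was not tested.

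**Figure D2:**
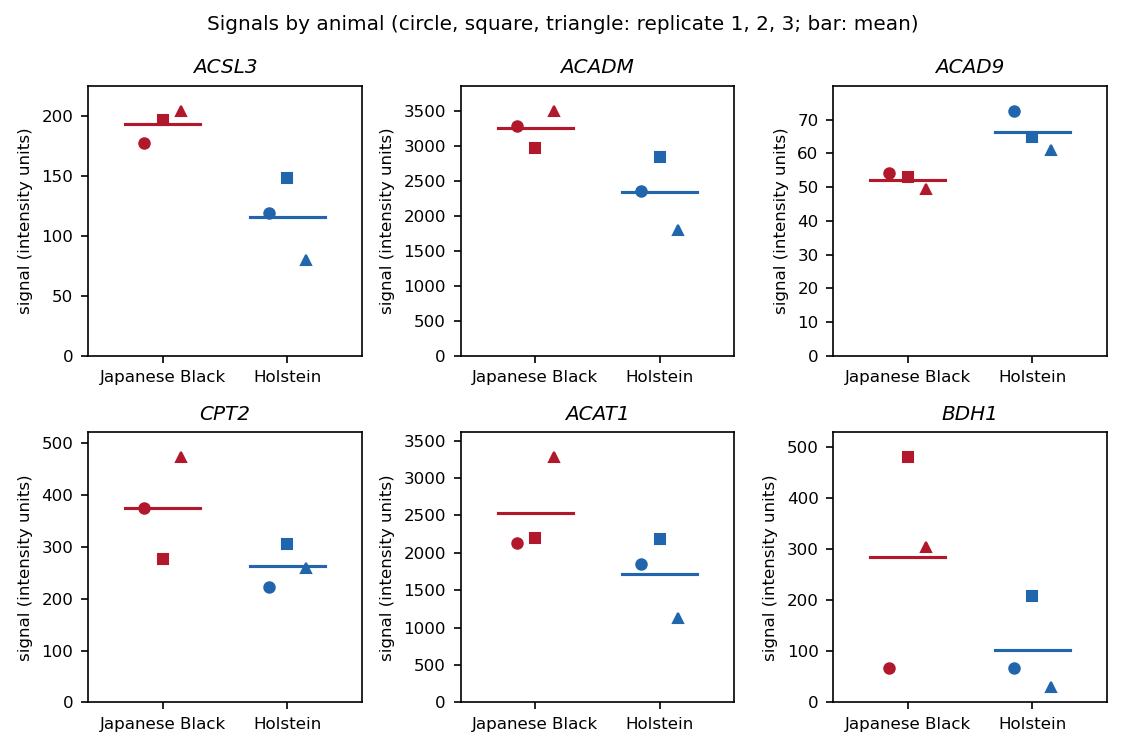
Each panel plots the linear signal of 1 gene in 3 Japanese Black and 3 Holstein steers, with the bar at the breed mean. ACSL3 and ACADM separate the breeds upward in Japanese Black and ACAD9 downward, CPT2 and ACAT1 overlap between breeds, and BDH1 spans 31.0 to 481.

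All 5 measured genes of the carnitine shuttle group, in which MLYCD was counted, had positive differences, where 51.0% of all probe sets did. Their median was 0.12, and 0 of them had an unadjusted limma p under 0.05. The signs of CPT1B and MLYCD were not kept under every alternative. CPT1B encodes the muscle form of the outer carnitine palmitoyltransferase, the step at which malonyl-CoA inhibits entry of fatty acids. Its signal was 738, 598 and 679.6 in Japanese Black 1 to 3 and 498, 772 and 652 in Holstein 1 to 3. The highest and the lowest animal were both Holstein. The difference of CPT1B was 0.08 (SE 0.19, 95% interval -0.35 to 0.52), and it was -0.08 without Holstein 1 and -0.0097 after quantile normalization.

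CPT2, the inner palmitoyltransferase that hands the acyl group back to coenzyme A, had the largest difference of the shuttle. It read 374 ± 98.7 in Japanese Black and 262 ± 41.8 in Holstein (SD, n = 3 each). The breeds overlapped, since Japanese Black 2 at 276 was below Holstein 2 at 306. The log2 difference of CPT2 was 0.47 (SE 0.22, adjusted p 0.423), and leaving out Japanese Black 3 gave 0.29, while leaving out Japanese Black 2 gave 0.66. SLC25A20, the carnitine-acylcarnitine carrier, had differences of 0.20 and 0.17 at its 2 probe sets, with signals of 2189 ± 175 and 1911 ± 179 (SD, n = 3 each) at the brighter one. CRAT, which exchanges acetyl groups between carnitine and coenzyme A, had a difference of 0.12, and MLYCD, which removes malonyl-CoA, one of 0.10. The ranges of both overlapped between breeds, at 1066 to 1278 against 880.4 to 1220.2 for CRAT and 1197 to 1302 against 939.6 to 1421 for MLYCD.

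Within the mitochondrial spiral 7 of 14 measured genes had differences above 0 and 7 below 0, and their median was 0.10. ACADM, the medium-chain acyl-CoA dehydrogenase, had the largest difference. Its signal was 3283, 2976 and 3509 in Japanese Black 1 to 3 and 2364, 2848 and 1806 in Holstein 1 to 3. The breeds did not overlap, although Holstein 2 came within reach of Japanese Black 2. The log2 difference of ACADM was 0.50 (SE 0.17, 95% interval 0.10 to 0.89), a 1.41-fold difference, with a limma adjusted p of 0.347. It was 0.32 without Holstein 3, the animal with the lowest signal, and 0.65 without Holstein 2. It kept an unadjusted p under 0.05 in 3 of the 6 fits that left out an animal, against 6 of 6 for ACSL3. With the adipocyte marker level as a covariate it was 0.48 (adjusted p 0.223).

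The other straight-chain dehydrogenases act on longer or shorter chains and showed smaller or less certain differences. ACADVL, for very long chains, read 1503, 1007 and 1597 in Japanese Black 1 to 3 and 1214, 1942 and 1462 in Holstein 1 to 3. Its lowest animal was Japanese Black 2 and its highest Holstein 2. The difference of ACADVL was -0.17 (95% interval -0.68 to 0.35), and it was 0.04 without Japanese Black 2 and 0.01 without Holstein 2. ACADL, for long chains, ranged from 41.9 to 129 in Japanese Black and from 23.9 to 80.7 in Holstein. Its difference of 0.36 had a wide interval of -0.53 to 1.26, and it was -0.0023 without Japanese Black 3 and -0.019 without Holstein 3. ACADS, for short chains, read 629.8 ± 167 and 625 ± 63.3 (SD, n = 3 each), with a difference of -0.02 (95% interval -0.48 to 0.45).

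The 6 possible pairs of these dehydrogenases were compared within each array, a comparison chosen after the values were seen. The log2 ratio of ACADM to ACADVL was 1.12 to 1.55 in Japanese Black and 0.30 to 0.95 in Holstein, a difference of 0.66 that separated all animals. The log2 ratio of ACADS to ACADM differed by -0.51, also without overlap. For each of these pairs the two-sided exact permutation p was 0.10, the smallest that 3 against 3 animals allow, and 0.30 after Benjamini-Hochberg adjustment over the 6 pairs. The remaining 4 pairs overlapped between breeds, with exact permutation p between 0.40 and 0.70. With so few animals this exact test cannot reach 0.05, whatever the values.

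**Figure D3:**
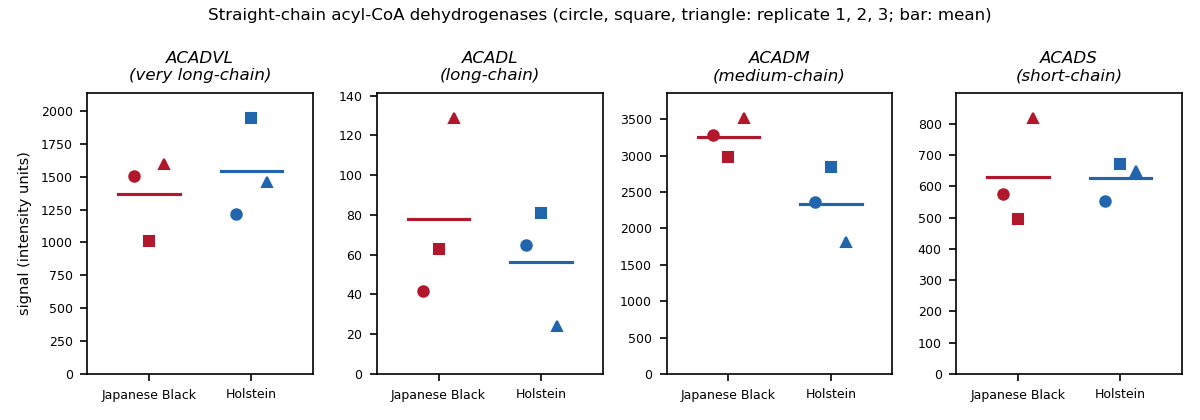
Linear signals of the 4 straight-chain acyl-CoA dehydrogenases are plotted for 3 Japanese Black and 3 Holstein steers, each panel on its own axis from 0, with bars at the means. The breeds are apart at ACADM and overlap at ACADVL, ACADL and ACADS.

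The trifunctional protein, which carries the later steps of long-chain oxidation, is built from HADHA and HADHB. HADHA, the subunit with hydratase and dehydrogenase activity, read 484, 312 and 573 in Japanese Black 1 to 3 and 296, 392 and 354 in Holstein 1 to 3. The order of the animals crossed between breeds, with Japanese Black 2 below Holstein 2 and Holstein 3. HADHA had a difference of 0.35 (SE 0.23, 95% interval -0.18 to 0.88) and HADHB, the thiolase subunit, one of 0.29 (SE 0.17, 95% interval -0.08 to 0.67). The difference of HADHA depended on Japanese Black 2 and 3, at 0.59 without the former and 0.17 without the latter. The enzymes for shorter chains differed less from 0. HADH, the dehydrogenase for medium and short hydroxyacyl chains, read 2313 ± 298 and 2325 ± 399 (SD, n = 3 each), with a difference of -0.00076 (95% interval -0.38 to 0.38). ECHS1, the short-chain hydratase, had a difference of -0.04 and ACAA2, the thiolase, one of -0.05.

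Side enzymes of the spiral ran in both directions. DECR1, needed for polyunsaturated chains, had differences of 0.23 and 0.31 at its 2 probe sets, and ECI1, which shifts double bonds, one of -0.04. ACOT13, a thioesterase that releases free fatty acids, read 597 ± 2.12 in Japanese Black and 522 ± 114 in Holstein (SD, n = 3 each), a difference of 0.21. ACADSB, a dehydrogenase for short branched chains, read 298 ± 10.6 and 236 ± 88.7 (SD, n = 3 each). Its difference of 0.38 was 0.09 without Holstein 3, which read 145. ACAD9, a relative of ACADVL that is needed to assemble respiratory complex I, was the lowest of the group. Its signal was 54.3, 53.1 and 49.4 in Japanese Black 1 to 3 and 72.7, 64.9 and 61.2 in Holstein 1 to 3. Every Japanese Black animal was below every Holstein animal. The log2 difference of ACAD9 was -0.27 (SE 0.15, adjusted p 0.479) and -0.27 at its other probe set. The spread of ACAD9 within breeds, an SD of 0.08 on the log2 scale, was the smallest of all 35 members.

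Electron transfer and uncoupling showed no difference that exceeded the spread between animals. ETFA and ETFB are the subunits of the flavoprotein that takes electrons from the acyl-CoA dehydrogenases. ETFA had mean signals of 1141 and 1138, with a difference of 0.00028 (95% interval -0.34 to 0.34). ETFB read 599 ± 118 and 676 ± 38.3 (SD, n = 3 each), with a difference of -0.19 (95% interval -0.60 to 0.22). UCP3, a mitochondrial carrier of muscle whose transcript follows fatty acid supply, ranged from 5813 to 8007 in Japanese Black and from 4375 to 8397 in Holstein. Its difference of 0.03 was -0.13 without Japanese Black 2 and -0.24 without Holstein 1. UCP2, its broadly expressed relative, was the only annotated member below the brightness filter, with 10.8 to 12.5 in Japanese Black and 12.9 to 24.6 in Holstein, and was not tested.

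Of the 7 tested peroxisomal genes 3 had differences above 0 and 4 below 0, and their median was -0.06. ACOX2, the oxidase of branched chains and bile acid intermediates, had the most negative difference of all members, -0.49 (SE 0.32, adjusted p 0.521). It ranged from 347 to 793 in Japanese Black and from 636 to 1031 in Holstein, and the difference was -0.12 without Japanese Black 2, which held the lowest signal. ACAA1, the peroxisomal thiolase, had a difference of -0.30, with ranges of 318 to 437 and 412 to 529. ACOT8, a peroxisomal thioesterase, had a difference of 0.33 at its brightest probe set, while a dimmer one gave -0.34. HSD17B4, the bifunctional enzyme for branched and very long chains, likewise had 0.19 and -0.22. At the brighter probe set of HSD17B4 Japanese Black 3 read 571, against 325 to 352 in the other animals, and the difference was -0.06 without that animal. CROT, which makes medium-chain acyls ready for export to mitochondria, had a difference of 0.09, DECR2 one of -0.14 and ECI2 one of -0.06.

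**Figure D4:**
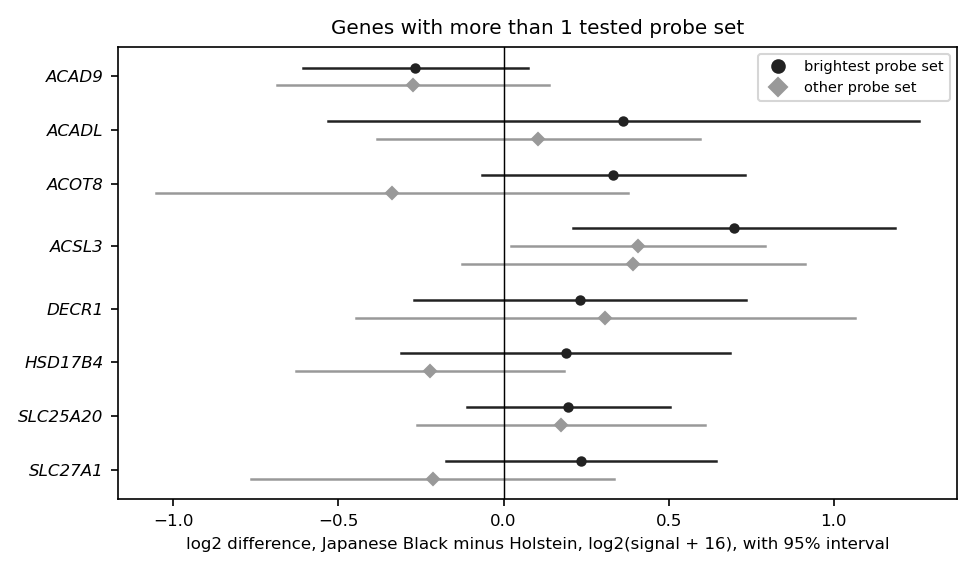
For the 8 genes with more than 1 tested probe set, points give the log2 difference between breeds of each probe set, above 0 where Japanese Black was higher, and lines its 95% interval. The sign is shared at ACAD9, ACADL, ACSL3, DECR1 and SLC25A20 and opposite at ACOT8, HSD17B4 and SLC27A1.

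Of the genes of ketone body use, 2 were measured and both varied widely between animals. BDH1 converts 3-hydroxybutyrate to acetoacetate, and ACAT1 splits acetoacetyl-CoA. BDH1 read 68.3, 481 and 305 in Japanese Black 1 to 3 and 66.5, 208 and 31.0 in Holstein 1 to 3. Japanese Black 1 was close to Holstein 1 and below Holstein 2, so the breeds overlapped. The SD of BDH1 within breeds, 1.24 on the log2 scale, was the largest of the 35 members and above that of 99.7% of all probe sets. Its log2 difference of 1.32 (SE 0.69, adjusted p 0.457) accordingly had an interval from -0.26 to 2.89, and leaving out Japanese Black 1 gave 2.06, while leaving out Japanese Black 2 gave 0.78. ACAT1 read 2129, 2195 and 3279.7 in Japanese Black 1 to 3 and 1852, 2181 and 1128 in Holstein 1 to 3. Only Holstein 2 overlapped with the Japanese Black animals. The log2 difference of ACAT1 was 0.58 (SE 0.26, adjusted p 0.402), and it was 0.38 without Japanese Black 3 and 0.30 without Holstein 3. With the adipocyte marker level as a covariate the difference of ACAT1 was 0.55 (SE 0.13, adjusted p 0.202).

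Much of the variation of these genes lay between animals of the same breed. This was not particular to them, since the median SD within breeds was 0.232 over the members and 0.226 over all probe sets. Japanese Black 3 had the highest signal at 16 of 35 members, or 45.7%, while it was highest at 31.4% of all probe sets. After quantile normalization it was highest at 13. Holstein 3 was lowest at 11 members, or 31.4%, against 27.6% of all probe sets, and Japanese Black 2 at 10 members, or 28.6%, against 17.3%. The mean level of the members, relative to the mean of all arrays, was -0.01, -0.06 and 0.27 in Japanese Black 1 to 3 and -0.11, 0.08 and -0.18 in Holstein 1 to 3. Over all probe sets the same quantity was 0.09 in Japanese Black 3 and between -0.04 and 0.01 in the others. After quantile normalization the member level of Japanese Black 3 was 0.14. The animals with the highest member level, Japanese Black 3 and Holstein 2, also had the highest summed adipocyte markers, and Holstein 3 had the lowest of both. The orders differed in the remaining animals. Holstein 1, at 6237, was above Japanese Black 1 and 2, at 2957 and 2792, in the markers but below both in member level. With the adipocyte marker level as a covariate the median difference over the members was 0.08, against 0.09 without it. Since that level was nearly balanced between breeds, the covariate could hardly move the median, and the part of fat was not tested.

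**Figure D5:**
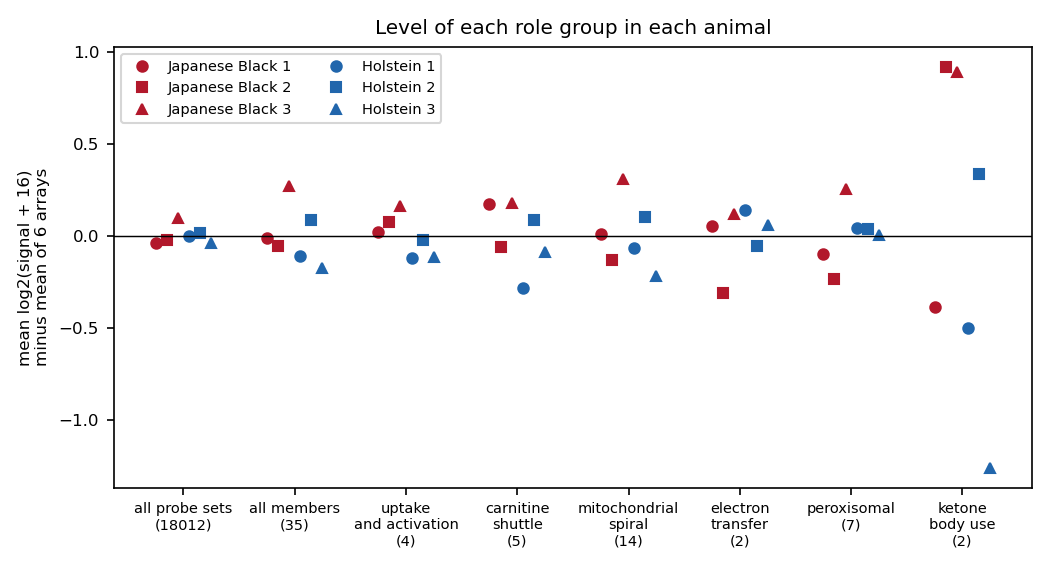
For each role group, points give the mean log2(signal + 16) of its genes in 1 animal minus the mean over the 6 arrays, with the number of genes or probe sets in brackets. Japanese Black 3 is the highest animal for all members, at 0.27, and the ketone genes spread most, from -1.26 to 0.92.

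Other genes of fatty acid oxidation, taken from 3 further lists, also gave 0 adjusted p under 0.05. Of 11 tested genes that supply fatty acids, 11 had differences above 0, with a median of 0.42, and 2 of them, or 18.2%, an unadjusted p under 0.05. Over all probe sets 51.0% had differences above 0 and 12.6% such a p. The smallest of these differences was 0.00024, so the shared sign covers genes with no measurable difference. Japanese Black 3 was the highest animal at most of the 11 genes, and the dependence of the list on single animals was not tested. The breeds did not overlap at 2 of the 11, or 18.2%, against 19.8% of all probe sets. PLIN5, which ties lipid droplets to mitochondria in oxidative muscle, read 396, 372 and 527 in Japanese Black 1 to 3 and 241, 305 and 239 in Holstein 1 to 3. Its groups did not overlap, and the log2 difference was 0.68 (SE 0.19, adjusted p 0.311). ACSL1, the main acyl-CoA synthetase of muscle, also did not overlap, with a difference of 0.33 (SE 0.13, adjusted p 0.375), and SLC22A5, the carnitine importer, had one of 0.42. Of 30 tested genes of related oxidation steps and of peroxisomes, 19 had differences above 0 and 11 below 0, with a median of 0.13, and 3 of the former and 2 of the latter had an unadjusted p under 0.05. These were 16.7% of the list, against 12.6% of all probe sets, and the breeds did not overlap at 8 genes, or 26.7%, against 19.8%. ACOX3, a peroxisomal oxidase for branched chains, read 326, 394 and 445 in Japanese Black 1 to 3 and 154, 232 and 143 in Holstein 1 to 3. The groups lay far apart, with a log2 difference of 1.09 (SE 0.22, adjusted p 0.183), opposite in sign to ACOX2. PEX11A, which drives division of peroxisomes, had a difference of 0.50, and AMACR, a racemase for branched chains, one of -0.65. Of 11 tested regulators, 8 had differences above 0 and 3 below 0, with a median of 0.17, and PPARGC1A alone had an unadjusted p under 0.05, or 9.09% of the list against 12.6% of all probe sets. PPARGC1A, a coactivator of mitochondrial genes, had a difference of 1.11 (SE 0.46, adjusted p 0.383) while the breeds overlapped at this brightest probe set. Its dimmer tested probe sets had differences of 0.88, with overlap, and 0.55, without overlap. The nuclear receptors PPARD and PPARA had -0.34 and 0.30.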

How the data were processed

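Muscle RNA of 6 steers was measured on 6 Affymetrix bovine arrays. The authors deposited 1 linear intensity per probe set and array. GCOS 1.1.1 is named in the submitters' processing notes, as is the program Affymetrix Expression Console 1.1. How probes were summarised or scaled is not given in the sources used here. Detection calls were not used. Of 24128 probe sets 112 controls were left out. After adding 16 and taking log2, the dimmest 25% by mean were left out, which left 18012. No scaling between arrays was added. The comparison of breeds used lmFit and eBayes with an intensity trend (limma 3.58.1, R 4.3.3), two-sided and unpaired, and p-values were adjusted by Benjamini-Hochberg over those 18012. The step was tested on simulated data with independent noise for each probe set and array, which leaves out shared differences between animals. The series names a paired t-test, but the labels name no pairs; all 6 matchings were run as alternatives. The number of arrays limits the precision.

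Gene symbols came from the platform annotation, and all 36 gene identifiers matched RefSeq assembly ARS-UCD2.0 with 0 symbols changed. Members with an unadjusted p under 0.05, members without overlap, and CPT1B, ACADVL and HADHA (ETFDH and OXCT1, in the same rule, were not analysed here) were named with values per animal; CPT2, ACAT1, BDH1 and the pairs of dehydrogenases were added after their values were seen, and up to 3 genes of smallest p were named per further list. Members, lists and rules were chosen with earlier results of these data known. Alternatives were offsets of 1 and 64, other filters, quantile normalization, median centring, other variance models, leaving out each animal, the mean over a gene's probe sets and an adipocyte covariate. Plots used matplotlib 3.10.9 (Python 3.11.15).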

Additional observations from a re-analysis of the deposited data

How the results depend on the processing

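The count of members past the adjusted threshold was 0 under all alternatives, a threshold of 0.10 included. The count of members with an unadjusted p under 0.05, reported as 2, was 4 with median centring and with the adipocyte covariate, 6, 5, 4 and 4 under 4 of the 6 matchings of animals into pairs, and 1 to 6 when an animal was left out. With the plain unpaired t-test it stayed at 2, but the members were ACSL3, higher in Japanese Black, and ACAD9, lower there. ACADM had a p of 0.070 in that t-test. The count of all probe sets past the adjusted threshold, reported as 3, was 0 with an offset of 1, with the dimmest 50% left out and with the plain unpaired t-test, 7 at a threshold of 0.10, 1, 7, 0 and 0 under 4 matchings, and 0 to 15 when an animal was left out. The sign of the difference was kept at 18 of 35 members under each of the 22 alternatives in which it was measured, ACSL3, ACADM, CPT2, ACAD9, HADHA, HADHB, ACAT1 and BDH1 among them. The other filters, the other variance models and the matchings do not alter the difference itself, so its sign could turn only under the remaining alternatives. Signs turned for CPT1B (-0.0097) and ETFA (-0.071) after quantile normalization, for HADH (0.015) after median centring, for ETFA (-0.0024) with the covariate, and for DECR2 (0.11), HSD17B4 (-0.017) and ACOT8 (-0.0021) with the mean over a gene's probe sets. Leaving out an animal gave differences of -0.36 to 0.0053 for ACSL5, -0.082 to 0.23 for CPT1B, -0.050 to 0.24 for MLYCD, -0.019 to 0.66 for ACADL, -0.32 to 0.036 for ACADVL, -0.22 to 0.14 for ACADS, -0.13 to 0.12 for HADH, -0.22 to 0.057 for ECHS1, -0.22 to 0.072 for ACAA2, -0.16 to 0.074 for ECI1, -0.057 to 0.10 for ETFA, -0.24 to 0.23 for UCP3, -0.060 to 0.33 for HSD17B4, -0.040 to 0.20 for CROT and -0.23 to 0.043 for ECI2. The cause of these changes was not tested. The matchings cover every way to pair the animals, and the labels do not say which of them, if any, is the study's.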

Other observations

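BDH1, whose spread within breeds was the largest, was highest in Japanese Black 2, Japanese Black 3 and Holstein 2. These animals also had the highest signals of FABP3, the fatty acid binding protein of muscle, and of PDK4, a kinase that inhibits pyruvate dehydrogenase. FABP3 read 6076, 9012 and 9536 in Japanese Black 1 to 3 and 5162, 9352 and 5510.3 in Holstein 1 to 3. PDK4 read 6888, 9045 and 8724 in Japanese Black 1 to 3 and 3932, 10435 and 5104 in Holstein 1 to 3. ACACB, which makes the malonyl-CoA that inhibits CPT1B, read 1211, 1642 and 1364 in Japanese Black 1 to 3 and 669, 1853 and 901 in Holstein 1 to 3, with the same animals above the rest. In the summed adipocyte markers Japanese Black 2 read 2792, below Holstein 1 at 6237. LEP, alone of the 8 adipocyte markers, had the same animals above the rest. It read 58.9, 92.5 and 407 in Japanese Black 1 to 3 and 58.0, 239 and 18.6 in Holstein 1 to 3. The part of fat in this order was not tested. The genes of this section were chosen after their values were seen, and their likeness was not tested.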
